A study of Mus musculus with 34 samples.

Results

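The cytochrome P450 genes were followed in the liver of 34 juvenile mice. Probes were taken as members when their identifier matched a RefSeq transcript of a gene whose symbol is Cyp followed by a number, a letter and a number, and the bile acid, cholesterol and retinoid genes Cyp7a1, Cyp8b1, Cyp27a1, Cyp26a1 and Cyp51 were left out. This gave 89 probes of 66 genes in 31 subfamilies, out of 16535 genes named on the array by 23374 of its 41174 probes. In 45 of these genes there was 1 probe, and in the other 21 there were more. The signal of 81 member probes, from 62 genes, was above the limit set by the negative control spots on most arrays.

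Liver RNA of C57BL/6 pups at postnatal day (PND) 15 was labelled with Cy5 and hybridized to 2-colour arrays against a universal mouse reference RNA labelled with Cy3, with 1 pup per array, and each value below is the log2 ratio of Cy5 to Cy3. Control pups (4 males and 4 females) received saline. Hypo pups (4 males and 5 females) also received saline, and their dams drank water with methimazole (MMI, 0.05%) and sodium perchlorate (1%), agents that block hormone synthesis and iodide uptake by the thyroid, for 3 days. Hyper pups (5 males and 5 females) were injected with 50 μg T4 and 5 μg T3 per 100 g body weight 4 h before collection. Hypo+ pups (4 males and 3 females) came from dams on the same MMI and perchlorate water and were injected with 20 μg T4 and 2 μg T3 per 100 g at that time, and by the methods they were the injected pups whose serum T4 came out near or slightly above control. All saline and hormone injections were intraperitoneal, and the drinking water of all dams contained sucrose. The first digits of the animal numbers, taken here as litters although the labels do not say so, gave 20 litters with 1 treatment each. Of these litters, 14 had pups of both sexes, so the fits over both sexes counted littermates as separate pups.

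Cytochrome P450 enzymes are haem proteins that insert 1 atom of oxygen into their substrate, with electrons passed on from NADPH by P450 oxidoreductase or, in mitochondria, by ferredoxin. In the liver, families Cyp1 to Cyp3 oxidize drugs, plant compounds and steroids, family Cyp4 hydroxylates fatty acids, and the remaining families make or break down steroid hormones, sterols, vitamin D and retinoids. Many of the genes lie in tandem clusters of close copies, several are switched on around weaning, and the nuclear receptors CAR and PXR, the aryl hydrocarbon receptor and PPAR alpha induce different subfamilies.

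The 34 arrays had median Cy5 signals of 146 to 199, and from 60.8% to 79.4% of the spots were well above background. All 6 hepatocyte markers with a probe were above the negative-control limit. Of 7 pancreatic acinar markers with a probe, 6 were above it (Pnlip was not), and their mean log2 ratio was 2.17 to 4.78 on 4 arrays (2 control males, 1 control female and 1 hypo+ female) against 0.51 to 0.85 on the other 30. The 8 arrays of 1 scan day, which held 1 array of every group, also stood apart, as described with the spread between pups below.

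Across the family, few member probes were called in the treatment comparisons (limma, Benjamini-Hochberg adjustment over all 41174 probes, adjusted p below 0.05 called significant). Averaged over both sexes, 2 of 89 member probes passed the test in hypo against control, which is 2.25% of members beside 1.09% of all probes. Cyp2c55 rose and the Cyp3a44 probe A_52_P366803 fell, while the brighter Cyp3a44 probe was at 0.05. No member passed in hyper against control, where 0.848% of all probes did, or in hypo+ against control, where 0.746% did. Between hypo+ and hypo, 4 member probes (4.49%) passed beside 3.07% of all probes: Cyp2g1 and 2 probes of Cyp2a4 rose, and Cyp2c55 fell. With median centring in place of loess no member was called in either comparison. The comparisons share pups: the controls enter all those against control, and the hypo pups enter both comparisons that name hypo. At an unadjusted p below 0.05 the members numbered 9 in hypo, 5 in hyper, 4 in hypo+ and 13 in hypo+ against hypo, beside 8.51%, 7%, 10.8% and 13.6% of all probes.

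With the sexes fitted apart, no member passed the test in males, where the shares of all probes called were 0.0971% in hypo, 0.0753% in hyper, 0.0267% in hypo+ and 0.369% in hypo+ against hypo. At an unadjusted p below 0.05 these limma comparisons had 4, 1, 1 and 4 members, or 4.49%, 1.12%, 1.12% and 4.49%, beside 5.19%, 2.98%, 7.56% and 9.18% of all probes. In females no member passed in hypo (0.155% of all probes called), hyper (0.158%) or hypo+ (0.0219%) against control, and 6, 4 and 3 members (6.74%, 4.49% and 3.37%) had an unadjusted p below 0.05, beside 4.72%, 6.15% and 4.79% of all probes. Cyp2g1 and 1 probe of Cyp2a4 rose in hypo+ against hypo females, where 0.556% of all probes were called, and 10 members (11.2%) had an unadjusted p below 0.05 beside 7.76% of all probes. The difference between the sexes in the response to a treatment was called for no probe (0% of all probes, 0 of 89 members), and 1 member, Cyp2j13 in the hyper comparison, had an unadjusted p below 0.05.

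The plot by subfamily shows the size of these differences. The median log2 fold change of the 89 probes was 0.01 in hypo, -0.05 in hyper, 0.07 in hypo+ and 0.08 in hypo+ against hypo, and the medians of all probes lay between -0.01 and 0.00. In hyper pups 68 of the 89 probes were lower than control, but 56 were higher once the 4 arrays high in acinar markers were left out. In hypo+ pups 61 were higher than control and 60 were higher than hypo, against 38 and 40 with slide as a fixed block. The hypo split of 48 higher and 41 lower became 68 and 21 with normexp background correction and 67 and 22 without the 4 acinar-high arrays.

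**Figure D1:**
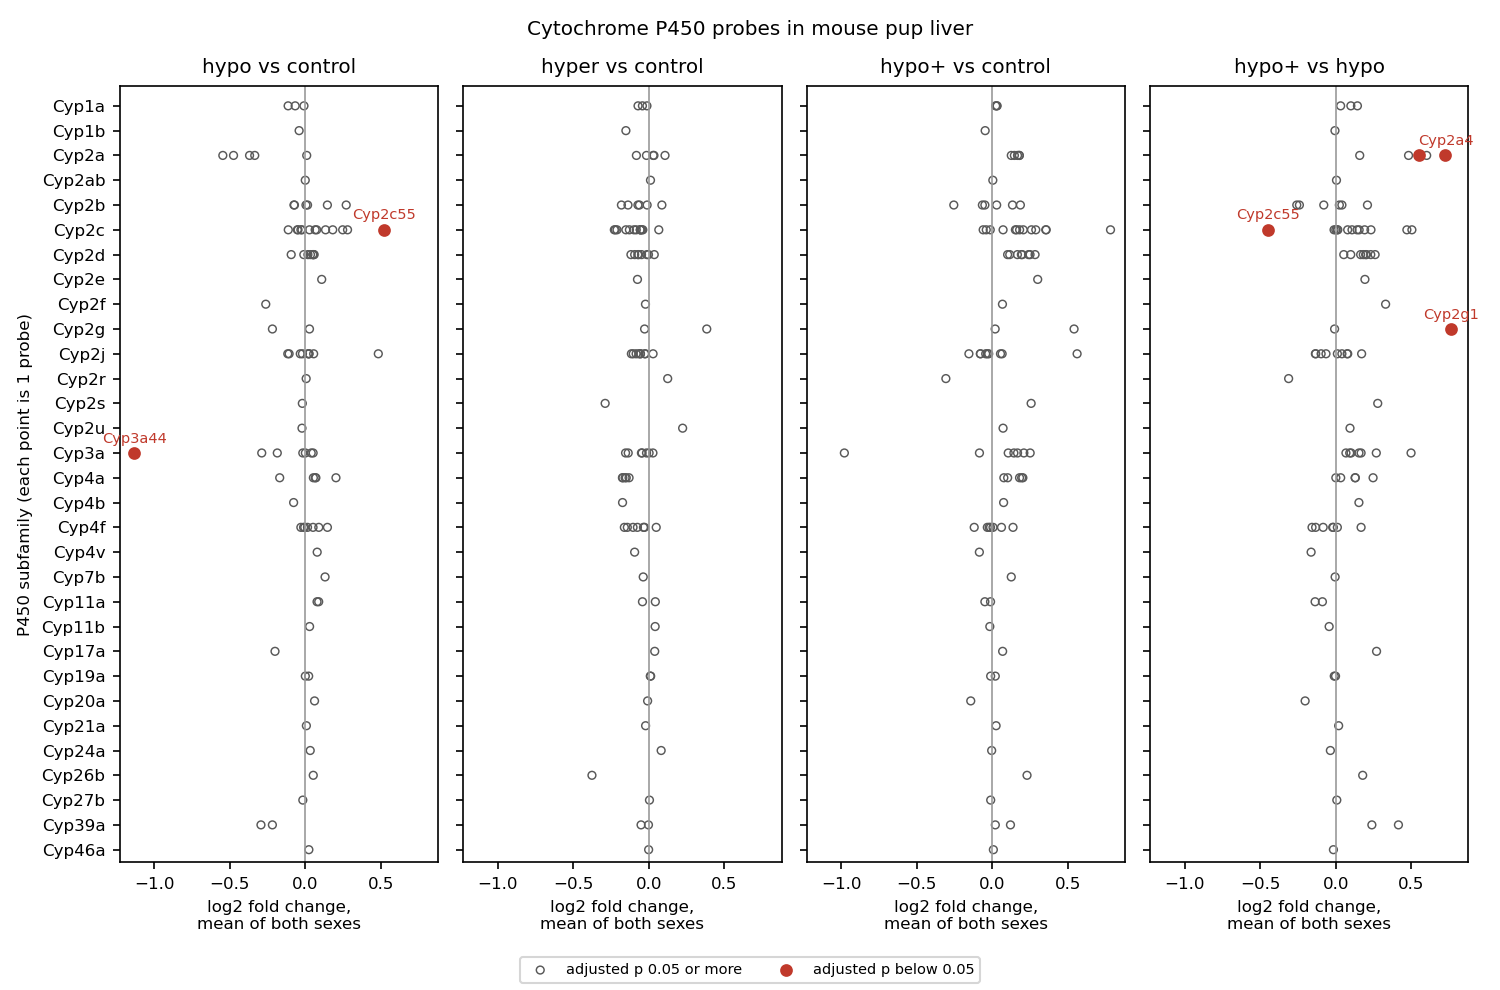
Log2 fold change (x axis, mean of both sexes) of each of the 89 P450 probes by subfamily (y axis) in 4 comparisons. Each circle is 1 probe, and filled circles passed an adjusted p of 0.05. Most open circles lie near 0 apart from 1 Cyp3a44 probe at -0.98 and Cyp2c54 at 0.78 in hypo+ against control.

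Cyp2a4 and Cyp2a5 encode steroid 15 alpha-hydroxylase and coumarin 7-hydroxylase, and both lie with Cyp2g1 in a P450 cluster on chromosome 7 (GRCm38.p6: Cyp2a4 at chr7:26307192-26315088, Cyp2g1 at chr7:26808927-26821197, Cyp2a5 at chr7:26835339-26843264). The 250 bases before the start of both Cyp2a genes, from the RefSeq windows of GRCm38.p6, are shown to compare the copies. These bases lie before the transcripts. Whether transcripts of the copies share signal on a probe could not be checked, as the probe sequences were not used. AGGTCA is the hexamer recognized by thyroid hormone receptors and other nuclear receptors. No exact AGGTCA was found in these 250 bases on either strand, and capitals would mark it. The authors searched a longer region for pairs of half-sites that may vary in sequence, which this scan did not do.
Cyp2a4, chr7:26306942-26307191, plus strand: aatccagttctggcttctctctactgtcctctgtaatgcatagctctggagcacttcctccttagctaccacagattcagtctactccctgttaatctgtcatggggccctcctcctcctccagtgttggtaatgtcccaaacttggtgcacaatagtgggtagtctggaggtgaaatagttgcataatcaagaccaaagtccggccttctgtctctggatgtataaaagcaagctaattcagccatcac
Cyp2a5, chr7:26835089-26835338, plus strand: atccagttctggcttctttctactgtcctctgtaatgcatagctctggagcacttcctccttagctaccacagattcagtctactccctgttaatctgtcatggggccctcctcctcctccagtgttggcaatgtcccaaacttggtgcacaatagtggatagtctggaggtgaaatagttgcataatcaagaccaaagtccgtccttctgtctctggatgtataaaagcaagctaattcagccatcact
The sequences were identical in 245 of 251 aligned columns, or 97.6%. TATAAA began 28 bases before the start in Cyp2a4 and 29 in Cyp2a5.

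For the Cyp2a4 probe A_52_P9703, control males had log2 ratios of 2.89, 3.06, 2.94 and 2.74 and control females 2.67, 3.11, 3.20 and 3.03. Hypo males had 2.41, 3.25, 2.06 and 2.29 and hypo females 2.32, 2.37, 2.47, 2.33 and 2.07. Every hypo female was below every control female, and in males 1 hypo pup was above all controls. Such separation of these females was seen for 1 of 89 member probes, beside 1.78% of all probes. In hypo+ pups the values were 2.96, 3.12, 2.07 and 3.15 in males and 2.98, 4.26 and 3.07 in females, and in hyper pups they ran from 2.60 to 3.37. All hypo+ females were above all hypo females, while the hypo+ male at 2.07 was among the lowest hypo males. Separation of hypo+ from hypo females was seen for 4 member probes, beside 5.06% of all probes.

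Between hypo+ and hypo this probe rose by 0.73 on the log2 scale in the mean of both sexes (SE 0.18, 1.65-fold, adjusted p = 0.0162) and by 1.13 in females (SE 0.23, 2.18-fold, adjusted p = 0.0347). The hypo+ female at 4.26 mattered: without this pup the value was 0.52 (adjusted p = 0.105) in the mean of both sexes and 0.71 (adjusted p = 0.117) in females. The call in females did not rest on that pup alone: it was lost in 8 of the 17 fits that left out 1 pup, control and hyper pups among them, and with normexp (1.08, adjusted p = 0.115), and it held at 0.56 with slide as a fixed block (adjusted p = 0.0312). The brighter probe A_52_P246255 of Cyp2a4 rose by 0.55 (SE 0.15, adjusted p = 0.0349), a call that was lost in 12 of the 34 fits that left out 1 pup and without the 4 acinar-high arrays (0.52, adjusted p = 0.0776), and the third probe was at 0.48 (adjusted p = 0.118). Within the 4 slides that held both groups, hypo+ was above hypo on 3 for each of the 3 probes, and with slide as a fixed block the first pair had 0.32 (adjusted p = 0.423) and 0.36 (adjusted p = 0.116).

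Against control, the hypo values of the 3 Cyp2a4 probes were -0.55, -0.37 and -0.34 with adjusted p of 0.144, 0.329 and 0.539, and hypo was below control on 6 of 7 slides for each. Cyp2a5 had -0.48 in hypo against control (SE 0.17, adjusted p = 0.252) and 0.60 in hypo+ against hypo (SE 0.18, adjusted p = 0.0558). Its log2 ratios were 5.87, 7.10, 5.65 and 5.89 in hypo males and 5.89, 6.09, 6.82, 5.95 and 5.80 in hypo females, beside 6.20 to 7.03 in controls and 6.51 to 7.12 in hypo+ pups. The hypo pups at 7.10 and 6.82 were the ones whose arrays were from the scan day that stood apart. Hypo and control pups of both sexes overlapped for this probe. They were separated for 0 of 89 member probes, beside 0.321% of all probes. Cyp2a12, a steroid hydroxylase of the same subfamily, had 0.01 in hypo and 0.16 in hypo+ against hypo, and neither value was called.

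Leaving out the 8 arrays of that scan day, a choice made after seeing the data, changed the calls for the Cyp2a genes. The arrays left out included the hypo pups at 7.10 and 6.82 for Cyp2a5 and the hypo+ male at 2.07 for A_52_P9703. The adjusted p-values that follow depend on that choice. Cyp2a5 then fell by 0.59 in hypo (adjusted p = 0.000752) and rose by 0.78 in hypo+ against hypo (adjusted p = 2.31e-05). Cyp2a4 fell by 0.65 and 0.48 in hypo for A_52_P9703 and A_52_P246255 (adjusted p = 0.0245 and 0.0108), and all 3 of its probes rose in hypo+ against hypo, by 0.70 to 1.11. In males alone A_52_P9703 and Cyp2a5 then rose in hypo+ against hypo, by 0.83 and 0.78 (adjusted p = 0.0388 and 0.0143), and in hypo females A_52_P246255 fell by 0.55 (adjusted p = 0.0211). Cyp2f2 and Cyp2b9 were also called in hypo+ against hypo in the mean of both sexes, at 0.40 (adjusted p = 0.0346) and 0.28 (adjusted p = 0.0494).

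A block changed the Cyp2a calls with all arrays kept. Cyp2a5 passed in hypo with scan day (-0.44, adjusted p = 0.0247) or slide (-0.44, adjusted p = 0.0432) as a fixed block. With the scan-day block Cyp2a5 also passed in hypo+ against hypo in the mean of both sexes (0.48, adjusted p = 0.0152). The Cyp2a4 probe A_52_P246255 kept its call there (0.44, adjusted p = 0.0154). For A_52_P9703 the call in hypo+ against hypo was lost with that block, in the mean of both sexes and in females. With the slide block, hypo females had called values of -0.70, -0.44 and -0.42 for the 3 Cyp2a4 probes (adjusted p = 0.00271, 0.0397 and 0.0262) and of -0.56 for Cyp2a5 (adjusted p = 0.0373). Over the 34 arrays the members whose log2 ratios followed Cyp2a5 most closely were Cyp2a4 (r = 0.91), Cyp2f2 (0.86), which oxidizes naphthalene and lies in the same cluster, and Cyp2b9 (0.77), Cyp3a25 (0.77) and Cyp2d12 (0.77), a description of arrays that share a scan day and a reference.

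Cyp2g1, known as an olfactory steroid hydroxylase, was the member with the lowest adjusted p in hypo+ against hypo. Its log2 ratios were 1.89, 2.09, 2.09 and 1.71 in hypo males and 2.02, 2.25, 2.50, 2.46 and 2.15 in hypo females. Hypo+ males had 3.23, 2.09, 2.21 and 2.54 and hypo+ females 3.07, 3.59 and 3.01. All hypo+ females were above all hypo females, and in males the groups met at 2.09. Hypo+ and hypo females did not overlap for 4 of 89 member probes, beside 5.06% of all probes.

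Cyp2g1 rose by 0.76 (SE 0.16, 1.69-fold, adjusted p = 0.00417) in hypo+ against hypo in the mean of both sexes and by 0.95 (SE 0.17, 1.93-fold, adjusted p = 0.0142) in females. On all 4 slides with both groups hypo+ was higher, by 0.11 to 0.57. The call in both sexes held in all 34 fits without 1 pup and with slide as a fixed block (0.55, adjusted p = 0.0301), and it was lost with normexp (0.67, adjusted p = 0.0533) and median centring (0.53, adjusted p = 0.156). That in females was lost without 1 hypo+ pup (0.76, adjusted p = 0.117), with slide as a fixed block (0.63, adjusted p = 0.149), with normexp (0.84, adjusted p = 0.157) and with median centring (0.66, adjusted p = 0.462). Controls lay between 1.65 and 2.70 and hyper pups between 2.11 and 3.15, with a hyper value of 0.38 (SE 0.15, adjusted p = 0.422), and hypo+ against control was 0.54 (SE 0.16, adjusted p = 0.113). The other Cyp2g1 probe was below the negative-control limit, and the reference signal of the called one was well above background on 25 of 34 arrays.

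Cyp2c55 encodes an arachidonic acid hydroxylase that CAR and PXR agonists are known to induce, and it was the member with the lowest adjusted p in hypo against control. It lies on chromosome 19 (GRCm38.p6, chr19:39006940-39042690).

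Control males had Cyp2c55 log2 ratios of 0.28, 0.40, 0.61 and 0.66 and control females 0.13, 0.57, 0.67 and 0.46. Hypo males had 1.28, 1.02, 0.83 and 0.93 and hypo females 1.19, 1.06, 0.61, 1.21 and 0.77. All 4 hypo males were above all control males, and 4 of 5 hypo females were above all control females. Hypo and control males did not overlap for 3 of 89 member probes, beside 3.08% of all probes. Hypo+ males were at 0.79, 0.70, 0.65 and 0.25 and hypo+ females at 0.56, 0.47 and 0.44, all below every hypo pup of their sex. Hypo+ and hypo pups did not overlap for 2 member probes in males and 4 in females, beside 4.61% and 5.06% of all probes. The 10 hyper pups ran from 0.04 through a median of 0.20 to 0.57.

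Cyp2c55 rose by 0.52 in hypo against control (SE 0.10, 1.43-fold, adjusted p = 0.00375) and fell by 0.45 in hypo+ against hypo (SE 0.10, 1.36-fold, adjusted p = 0.0113). Hypo+ against control was 0.07 (SE 0.11) and hyper against control -0.21 (SE 0.10, adjusted p = 0.638). Within slides, hypo was above control on 6 of 7 and hypo+ below hypo on 4 of 4. Both calls held in all 34 fits that left out 1 pup, without the 4 arrays high in acinar markers (0.56, adjusted p = 0.0231, and -0.47, adjusted p = 0.0241) and without the scan day that stood apart (0.62, adjusted p = 0.00865, and -0.52, adjusted p = 0.0216). The fall was not called with slide as a fixed block (-0.48, adjusted p = 0.0591), and neither call held with median centring in place of loess.

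**Figure D2:**
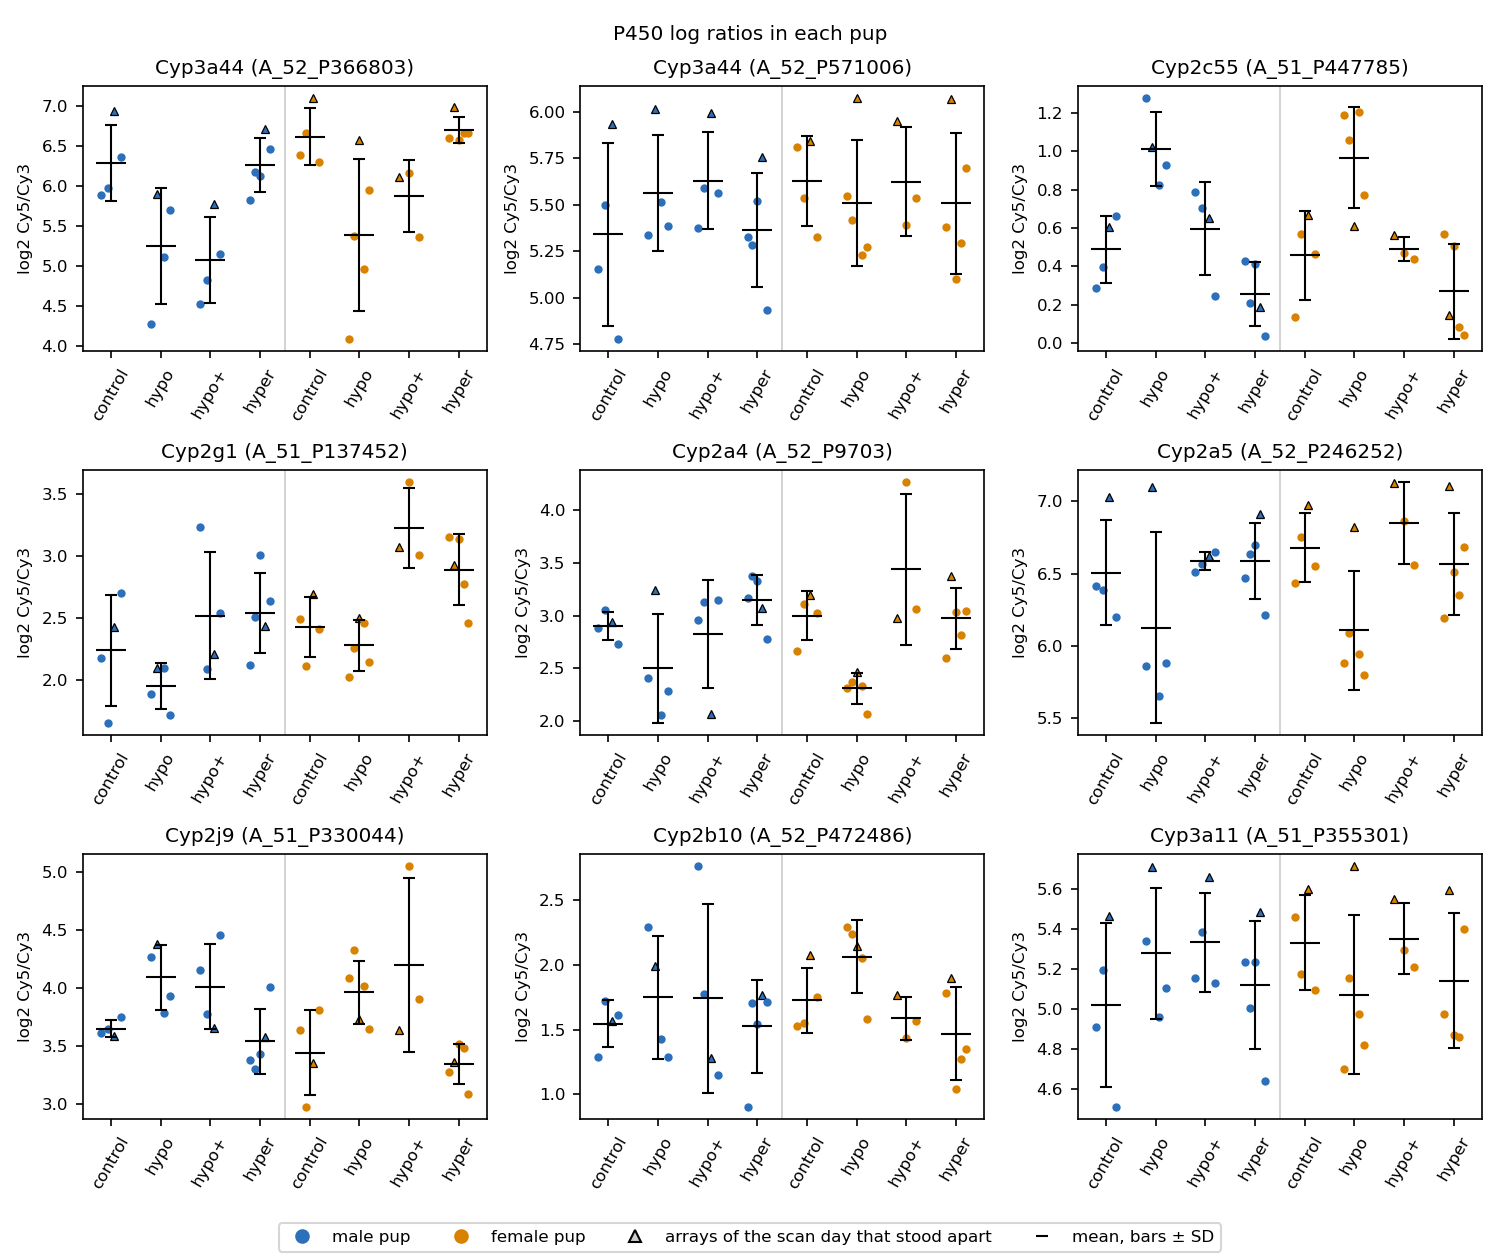
Log2 Cy5/Cy3 (y axis) of 9 P450 probes in each pup by sex and treatment (x axis). Points are pups, triangles are pups of the scan day that stood apart, and bars are mean ± SD. Cyp2c55 was highest in hypo pups of both sexes, and the Cyp3a44 probe A_52_P366803 was lowest in hypo and hypo+ pups while its other probe showed no such difference.

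The other Cyp2c members were not called. Cyp2c54 had the highest value of the family in hypo+ against control, 0.78 (SE 0.42, adjusted p = 0.524), and 0.50 in hypo+ against hypo (SE 0.41). Its log2 ratios spread from 1.48 to 3.58 among the 8 controls alone, and the reference signal was well above background on 4 of 34 arrays. Cyp2c39, a retinoic acid hydroxylase, had 0.36 and 0.47 in the same comparisons (SE 0.31 and 0.30), Cyp2c23, an arachidonic acid epoxygenase, 0.35 and 0.11, and Cyp2c29, a target of CAR, 0.29 and 0.15.

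Cyp3a44 belongs to the Cyp3a cluster on chromosome 5, whose enzymes oxidize steroids and drugs, and Cyp3a11, the main target of PXR in mouse liver, lies in the same cluster. The 250 bases before both genes are shown because AGGTCA occurred in each, in capitals, beginning 150 bases before the start of Cyp3a44 and 162 before that of Cyp3a11. The start used for Cyp3a44 is that of a transcript that begins slightly inside the listed gene (chr5:145773983-145805891), so the last bases of its sequence lie within it.
Cyp3a44, chr5:145805875-145806124, minus strand: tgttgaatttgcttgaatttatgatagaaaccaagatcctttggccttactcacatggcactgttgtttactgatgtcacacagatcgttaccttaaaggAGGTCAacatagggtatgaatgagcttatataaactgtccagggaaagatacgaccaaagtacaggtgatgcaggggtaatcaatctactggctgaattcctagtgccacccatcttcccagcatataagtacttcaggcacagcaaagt
Cyp3a11, chr5:145879855-145880104, minus strand: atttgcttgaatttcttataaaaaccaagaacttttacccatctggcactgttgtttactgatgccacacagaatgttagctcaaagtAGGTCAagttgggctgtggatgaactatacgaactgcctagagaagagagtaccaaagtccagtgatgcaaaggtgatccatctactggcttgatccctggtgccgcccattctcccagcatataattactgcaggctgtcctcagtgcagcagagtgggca
These were identical in 192 of 265 aligned columns (72.5%), and the window of Cyp3a41a, a close copy, matched that of Cyp3a44 in 236 of 250 (94.4%). AGGTCA was found on either strand in 23.7% of 59 windows of 50 member genes and in 14% of 32851 windows of all genes. TATAAA was in 35.6% and 12.4%, and CAAAGTCCA, an HNF4 motif, in 6.78% and 0.384%. RefSeq tables held no window for Cyp2g1 or Cyp4a14.

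For the Cyp3a44 probe A_52_P366803, control log2 ratios were 5.89, 5.97, 6.93 and 6.36 in males and 6.39, 6.67, 7.10 and 6.31 in females. Hypo pups had 4.28, 5.90, 5.11 and 5.71 in males and 4.09, 5.38, 6.58, 4.97 and 5.95 in females. Hypo+ pups had 4.53, 4.82, 5.78 and 5.15 in males and 6.11, 6.16 and 5.36 in females. All hypo+ pups were below all controls of their sex, and the highest hypo pup of each sex overlapped the controls. Hypo+ and control pups did not overlap for 1 member probe in males and 7 in females, beside 4.11% and 5.89% of all probes. Hyper pups, from 5.83 to 6.98 with a median of 6.59, overlapped the controls.

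This probe fell by 1.13 in hypo against control (SE 0.26, 2.19-fold, adjusted p = 0.0173), and its value in hypo+ against control was -0.98 (SE 0.27, adjusted p = 0.0822). It was lower than control on all 7 slides that held hypo pups (by 0.45 to 1.70) and on all 5 that held hypo+ pups. With slide as a fixed block it passed in both, at -1.06 (adjusted p = 0.00143) and -0.99 (adjusted p = 0.0384). The hypo call was lost without the 4 arrays high in acinar markers (-0.97, adjusted p = 0.21), with normexp background correction (-0.98, adjusted p = 0.209), with median centring (-0.95, adjusted p = 0.063), and without 1 control male (adjusted p = 0.0516), 1 control female (0.0503) or 1 hypo male (0.0619).

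The brighter Cyp3a44 probe, A_52_P571006, did not share this difference. It had 0.05 in hypo (SE 0.16) and 0.14 in hypo+ (SE 0.17) against control, with controls from 4.78 to 5.94 and hypo pups from 5.23 to 6.08. Among 21 pairs of probes of 1 gene, from 17 genes, the gap between the hypo values had a median of 0.12, a second largest of 0.27 and a largest of 1.18, that of Cyp3a44. The probe of Cyp3a41a, outside the member rule because of its final letter, had 0.04 in hypo (SE 0.15). Transcripts of the close Cyp3a copies cannot be told apart here, as the probe sequences were not used.

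**Figure D3:**
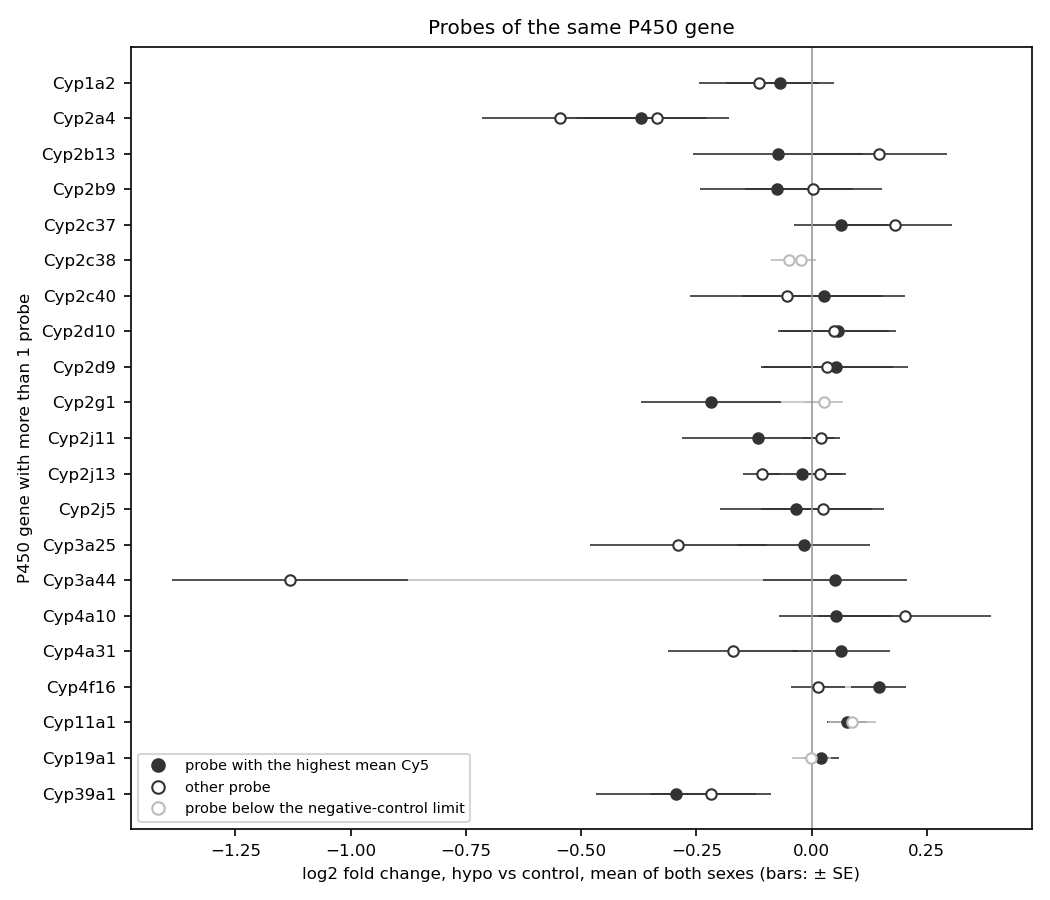
Log2 fold change in hypo against control (x axis, mean of both sexes, bars ± SE) for the 21 genes with more than 1 probe (y axis). Filled circles are the probe with the highest Cy5, open circles the others and grey circles probes below the negative-control limit. The probes of Cyp3a44 lie 1.18 apart, and no other pair above the limit lies more than 0.27 apart.

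Cyp2b10, Cyp3a11 and Cyp4a14, the usual reporters of CAR, PXR and PPAR alpha, were not called in any comparison. Cyp2b10 log2 ratios ran from 1.29 to 2.07 in controls, from 1.29 through a median of 2.06 to 2.29 in hypo, from 0.90 to 1.90 in hyper and from 1.15 to 2.76 in hypo+ pups, so that all groups overlapped. Its hypo value was 0.27 (SE 0.18, adjusted p = 0.828). Within slides, Cyp2b10 was higher in hypo than in control on 6 of 7 and lower in hypo+ than in hypo on 4 of 4. Its reference signal was well above background on 11 of 34 arrays. Cyp3a11 had 0.00 in hypo (SE 0.15), -0.05 in hyper (SE 0.15) and 0.17 in hypo+ (SE 0.16). Cyp4a14 had 0.07 (SE 0.10), -0.13 (SE 0.10) and 0.10 (SE 0.11), and its controls, at 6.89 to 7.62, overlapped all other groups.

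Other xenobiotic members came closer to the threshold without passing it. Cyp2j9, an arachidonic acid epoxygenase, had 0.48 in hypo (SE 0.15, adjusted p = 0.173) and 0.56 in hypo+ (SE 0.17, adjusted p = 0.105) against control. Its hypo pups ran from 3.64 to 4.38 and its controls from 2.97 to 3.80. Hypo was above control on 7 of 7 slides and hypo+ on 5 of 5, and with slide as a fixed block the hypo value passed (0.53, adjusted p = 0.0447). Cyp2f2 had -0.26 in hypo (SE 0.14, adjusted p = 0.664) and passed with scan day (-0.25, adjusted p = 0.0261) or slide (-0.25, adjusted p = 0.0487) as a fixed block. Cyp1b1, which oxidizes oestradiol and polycyclic hydrocarbons, had -0.15 in hyper (SE 0.07, adjusted p = 0.571) and passed with the same blocks (-0.19 each, adjusted p = 0.0187 and 0.0168).

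By role, the xenobiotic and drug P450s (56 probes of 39 genes) had 28 higher and 28 lower in hypo with a median of 0.00, and 41 higher and 15 lower in hypo+ with a median of 0.13, against 27 and 29 with slide as a fixed block. In hypo+ against hypo 44 were higher, 3 of them called, and 12 lower, 1 of them called, against 29 higher and 27 lower with that block. All 8 Cyp2d probes, of drug-oxidizing enzymes, were higher in hypo+ than in hypo, by 0.05 to 0.26, with none called, while 5 were higher with median centring and 6 with slide as a fixed block. Cyp2e1, the ethanol-inducible form, had 0.30 in hypo+ against control (SE 0.20), Cyp1a2, which oxidizes caffeine, 0.03 (SE 0.13), Cyp2b13 -0.05 (SE 0.20), Cyp2b9 0.13 (SE 0.18), Cyp2c70, a bile acid hydroxylase, 0.15 (SE 0.14), Cyp2d26 0.28 (SE 0.21) and Cyp3a16 -0.09 (SE 0.17).

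Fatty acid hydroxylases (14 probes of 11 genes) included 13 lower and 1 higher in hyper pups, with a median of -0.14 and none called. That split was 10 lower and 4 higher, with a median of -0.04, without the 4 acinar-high arrays. The 5 Cyp4a probes lay between -0.18 and -0.13, Cyp4b1 at -0.17 (SE 0.13), Cyp4v3 at -0.09 (SE 0.10) and Cyp4f15, which takes leukotriene and fatty acid substrates, at -0.08 (SE 0.13). In hypo 9 of the 14 were higher and in hypo+ 9 were higher, with medians of 0.05 and 0.07.

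Steroid hormone synthesis genes (7 probes of 5 genes) were not called, and 3 of these probes were below the negative-control limit. Cyp17a1, which makes androgen precursors, had the widest range, -0.20 in hypo (SE 0.14) and 0.27 in hypo+ against hypo (SE 0.15). Cyp11a1, the side-chain cleavage enzyme, had 0.08 in hypo, Cyp19a1 (aromatase) 0.02, Cyp21a1 0.01 and Cyp11b2 (aldosterone synthase) 0.03.

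None of the sterol, vitamin D and retinoid genes (8 probes of 7 genes) was called. Cyp2r1, the vitamin D 25-hydroxylase, had -0.31 in hypo+ against control (SE 0.11, adjusted p = 0.246) and -0.31 against hypo (SE 0.11, adjusted p = 0.145), with hypo+ log2 ratios from 1.61 to 2.43 beside 1.96 to 2.50 in controls. Cyp26b1, which degrades retinoic acid, was the lowest member in hyper, at -0.38 (SE 0.20, adjusted p = 0.771). Cyp39a1, an oxysterol 7 alpha-hydroxylase, had -0.29 in hypo (SE 0.17) and 0.41 in hypo+ against hypo (SE 0.18, adjusted p = 0.28). Cyp7b1, Cyp46a1, Cyp24a1 and Cyp27b1 had 0.13, 0.02, 0.03 and -0.02 in hypo. The reference signal was well above background on 7 of 34 arrays for Cyp2r1 and on 1 of 34 for Cyp7b1.

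Other members near the ends of the range, or brightest in their subfamily, were not called either. Cyp2s1 had -0.29 in hyper (SE 0.15) and 0.28 in hypo+ against hypo (SE 0.16), and Cyp2u1, a fatty acid hydroxylase, 0.22 in hyper (SE 0.11). Cyp20a1 had -0.20 in hypo+ against hypo (SE 0.12), Cyp2j13 -0.14 (SE 0.10) and Cyp2j5, an epoxygenase, 0.01 (SE 0.17). Cyp2ab1 was below the negative-control limit.

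Genes that serve the P450 enzymes were tested in the same fits. Of 7 redox partners, Cyb5a, which encodes cytochrome b5, rose by 0.36 (SE 0.07, adjusted p = 0.00626) and Fdxr, the mitochondrial ferredoxin reductase, by 0.21 (SE 0.04, adjusted p = 0.0093) in hypo. Por, the oxidoreductase that serves all microsomal P450s, had -0.14 in hypo (SE 0.10) and rose by 0.36 in hypo+ against hypo (SE 0.10, adjusted p = 0.0486). No redox partner was called in hyper or hypo+ against control by its brightest probe, and the other probe of Cyb5b, a mitochondrial cytochrome b5, was called in hypo+ against control and against hypo. None of 9 genes of haem synthesis and breakdown was called in any comparison, and Alas1, the rate-limiting step, had 0.25 in hypo (SE 0.11) and -0.25 in hyper (SE 0.11).

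Among 11 transcription factors known to control liver P450 genes, Stat5b, which carries the growth hormone signal, fell by 0.49 in hypo (SE 0.08, adjusted p = 0.000305). It rose by 0.44 in hyper (SE 0.07, adjusted p = 0.000985) and by 0.78 in hypo+ against hypo (SE 0.08, adjusted p = 1.19e-07). Cebpa had -0.39 in hyper (SE 0.10, adjusted p = 0.0714) by its brightest probe and was called by its other one. The receptors Nr1i3 (CAR), Nr1i2 (PXR), Ppara and Ahr were not called, with hypo values of 0.17, 0.04, -0.06 and 0.15.

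Between the sexes, no member was called, beside 0.0996% of all probes, and 8 members (8.99%, against 9.38% of all probes) had an unadjusted p below 0.05. In the loess-normalized values 65 of 89 were higher in females, with a median of 0.06, and with median centring 32 were. Cyp2g1 had the smallest adjusted p, at 0.39 higher in females (SE 0.11, adjusted p = 0.281), and Cyp2c54 the largest difference, 0.53 (SE 0.28).

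P450 log ratios varied more between pups of a group than other probes did. The residual SD of a member probe above the limit had a median of 0.28, against 0.13 for all probes above it, and it was highest for Cyp2c54 (0.85), Cyp2c39 (0.62) and the Cyp3a44 probe A_52_P366803 (0.56). Among 52 member probes from 40 genes with a mean Cy5 signal over 1000, the residuals correlated over the 34 arrays with a median r of 0.64, and 1239 of 1326 pairs were above 0, as a description of arrays that share scan days. These probes moved together by scan day. All 8 arrays of day 6 lay above their group means, by 0.13 to 0.51 on average over the 52 probes, and all 3 of day 1 below (-0.30 to -0.22). The 6 hepatocyte markers lay 0.32 to 0.69 above their group means on the same 8 arrays, and their part in the P450 values was not tested.

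**Figure D4:**
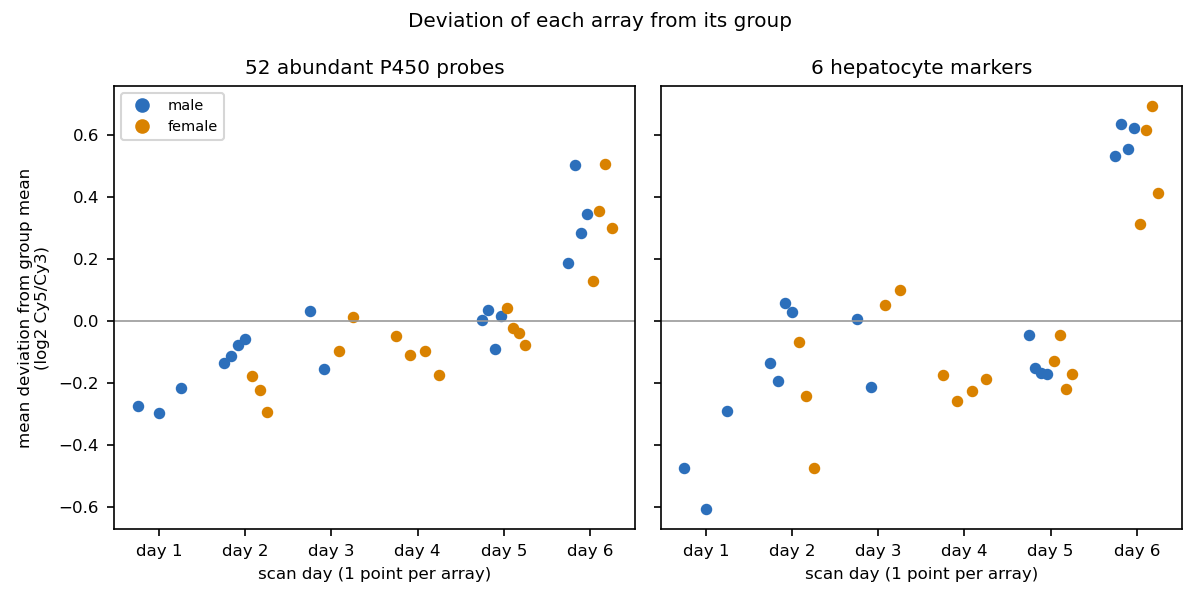
Mean deviation of each array from its group mean (y axis, log2 Cy5/Cy3) by scan day (x axis) for 52 abundant P450 probes (left) and 6 hepatocyte markers (right). Each point is 1 array, and the 8 arrays of day 6, 1 of each group, lie above 0 in both panels.

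In simulated data 91% of changes of 0.5 and 100% of changes of 1 on the log2 scale were recovered in the hypo comparison of both sexes. The shares were 73% and 92% in males and 80% and 96% in females. These shares are for 100 changed probes of each size, drawn from all probes above the negative-control limit, which varied less than the P450 probes. They were not computed for P450 probes alone. The simulated noise was independent between probes and held no scan-day effect. Bulk liver RNA was measured, so that fewer cells of a type and less RNA per cell cannot be told apart.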

How the data were processed

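The sample characteristics gave the sex and treatment of each array and the titles its treatment code and animal number, and every array had a group. The authors deposited scanner intensity files with median Cy5 and Cy3 signals, and a table of log2 ratios that per the methods followed loess normalization in MAANOVA; its scale was found by comparison with the deposited intensity values. The authors had removed 2 arrays of each sex that stood apart in clustering, and these were not analysed here.

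From the median signals, without background subtraction, control spots and 77 to 212 marked spots per array were left out, ratios were normalized by loess within arrays (limma 3.58.1, R 4.3.3) and spots of a probe were averaged. Of 33541 identifiers, 16806 matched a RefSeq accession. The negative-control limit was the 5% trimmed mean plus 3 trimmed SDs of 153 control spots. In limma, each sex was fitted with 4 groups, and all 34 arrays with 8 groups for the means of both sexes, the sex difference and the interactions, with Benjamini-Hochberg adjustment over all probes. Nothing in the labels says whether RNA of a pup was extracted more than once. Pups were taken as the replicates, and littermates as unrelated except where litter was a block. With litter as a random block 2 member probes were called in hypo against control and 4 in hypo+ against hypo. Array number limits the precision.

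Named genes were Cyp2b10, Cyp3a11 and Cyp4a14, called members, the 5 highest and 5 lowest per treatment comparison among members above the limit, and the brightest member of each subfamily. A gene's value is that of its probe with the highest Cy5 unless a probe is named. Members and lists were chosen with earlier results of these data known. The fit was tested on simulated data with 200 changed probes. Alternatives were normexp with an offset of 50, median centring, the deposited log2 table, probes above the limit, slide and litter blocks (litters taken from animal numbers) and leaving out each pup. Scan day as a block and leaving out the scan day or the arrays high in acinar markers (mean above 1.5) were chosen after seeing the data.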

Additional observations from a re-analysis of the deposited data

Results flagged for a closer look

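Single pups stood apart from the rest of their group, by Dixon's gap test at the 95% level, in 9 of 98 combinations of a probe and a group of 4 or 5 pups. Chance flags about 1 in 20 independent combinations. These combinations were not independent, as the same pups recur and probes of Cyp2a4 and Cyp2a5 are correlated. In hypo females 1 pup was far above the others for Cyp2a4 (5.83 for A_51_P377154 and 5.60 for A_52_P246255) and Cyp2a5 (6.82). In hypo males 1 pup was far above the others for Cyp2a4 (6.10 for A_51_P377154) and Cyp2a5 (7.10). In hypo+ males 1 pup was far below the others for Cyp2a4 (2.07 for A_52_P9703) and far above them for Cyp4a14 (7.52). In hyper females 1 pup was far above the others for Cyp3a44 (6.98 for A_52_P366803), and in hyper males 1 pup was far below the others for Cyp2b10 (0.90). The arrays of 8 of these 9 values were from the scan day that stood apart, and the part of that day in these values was not tested.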

How the results depend on the processing

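Of 2290 values of 44 named genes recomputed under the alternatives, none that was called changed sign. The alternatives not named below left each count of called members within 1.5 times its value in the report. In hypo against control, mean of both sexes, 2 member probes were called, against 0 with median centring, 1 with normexp, 1 without the arrays high in acinar markers, 4 with scan day as a fixed block, 5 with slide as a fixed block, 5 without the scan day that stood apart, and 1 to 5 when 1 pup was left out. In hypo+ against hypo the 4 called probes became 0 with median centring, 2 with normexp, 1 with slide as a fixed block, 8 without the scan day, and 2 to 6 without 1 pup. In females of the same comparison the 2 called became 0 with median centring, 0 with normexp, 1 with slide as a fixed block, 4 without the scan day, and 0 to 4 without 1 pup. Where none was called, scan day and slide as fixed blocks gave 1 each in hyper and 1 each in hypo+, and slide as a random block gave 1 in hypo+ (means of both sexes), where leaving out 1 pup gave 0 to 1. Slide as a fixed block gave 5 in hypo females and 1 in hypo males, and leaving out the scan day gave 1 in hypo females and 2 in hypo+ against hypo males, with 0 to 2 in hypo females when 1 pup was left out. The cause of these moves was not tested. With median centring 47 of all probes were called in hypo against control, in place of 448.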
